A study of Rattus norvegicus with 20 samples.

Results

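The 34 proliferation genes described here are transcribed mainly in dividing cells, and were chosen by name from the 39747 genes of the deposited count table. They comprise 10 genes of DNA replication, 7 mitotic cyclins and kinases, 8 genes of the spindle and kinetochore, 2 of the anaphase-promoting complex, 5 of cytokinesis, and 2 of chromosomes in dividing nuclei. RNA was sequenced from dorsal root ganglia (DRG), the clusters of sensory neurons and their glia beside the spinal cord, of female Sprague-Dawley rats. The labels give their genotype as WT. The methods give an age of 8 to 10 weeks ahead of acclimatization and diet, and no age at tissue collection. All rats ate a soy oil diet (SOD) or a fish oil diet (FOD) for 4 weeks before surgery and stayed on it afterwards. In chronic constriction injury (CCI), the left sciatic nerve was loosely tied with 4 ligatures, whereas in sham rats (CT) the nerve was exposed and not tied. The left DRG gave the groups SOD-CT (n = 4), SOD-CCI (n = 3), FOD-CT (n = 3), and FOD-CCI (n = 4), and the right DRG of 3 SOD-CCI and 3 FOD-CCI rats gave the contralateral groups. The methods place tissue collection 1 week after surgery in one passage and diets continued for 4 weeks after surgery in another, and do not say which lumbar ganglia were taken or whether ganglia were pooled.

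Cells that enter the cell cycle copy their DNA in S phase and separate it in mitosis, and each phase needs proteins that resting cells hardly make. Adult sensory neurons do not divide. In the DRG, satellite glia, Schwann cells, fibroblasts, endothelial cells, and macrophages can divide. Blood cell precursors divide in bone marrow, including that of the vertebrae next to the ganglion. Counts from a whole ganglion do not show which cells held a transcript, and more dividing cells cannot be told apart from more RNA per dividing cell.

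Per gene length, 4 of the 5 most abundant members belonged to DNA replication, whose other genes ranked down to 20 of 34. On the deposited FPKM scale (fragments per kilobase of gene, scaled to sequencing depth), the median over the 20 libraries was highest for Pcna (32.5), the sliding clamp of DNA polymerase, and Rrm1 (15.2), the large subunit of ribonucleotide reductase. Racgap1 (7.26), a regulator of the cytokinetic ring, Mcm7 (7.12), and Mcm4 (4.23) followed, the last pair being subunits of the replicative helicase. The quartiles of Racgap1 (5.57 to 10.7) and Mcm7 (5.97 to 9.47) overlapped, as did those of most neighbours in the order below them. Medians of the mitotic cyclins and kinases ran from 0.315 for Plk1 to 3.02 for Aurka, those of the spindle and kinetochore genes from 0.112 for Bub1b to 2.76 for Birc5, and Mki67, which encodes the antigen stained as Ki-67, stood at 0.372. Libraries held 22547190 to 54437581 counts (median 29051399), so 3 counts, the most that a count of 0 allows, were worth 0.0565 to 0.2 CPM (counts scaled to library size, with TMM factors), counting error only. The filter for testing, a minimum of 10 counts in 90% or more of the libraries compared, kept 28 members in the left comparison, 28 in the left against right comparison, and 25 in the comparison of contralateral with sham DRG. Aurkb, Plk1, Bub1b, and Ube2c passed in none of these, Ccnb2 and Anln in only the left against right one, and Cenpf and Nusap1 in only the left one, while Cdc20 failed among contralateral and sham DRG.

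The replication genes and the mitotic genes differed in the letters of their promoters. RefSeq promoters (assembly GRCr8, 250 bases before to 50 after the start) were matched for 27 members and searched on both strands for the cell cycle homology region (CHR, TTTGAA or TTTAAA), the CCAAT box (CCAAT), and an E2F site (GCGGGAA or GCGCGAA). No motif contains the letters of another. CHR letters were present in 19 of 19 members outside replication (100%), 1 of 8 replication members (12.5%), and 27.9% of all 27457 promoters. E2F letters were present in 6 of 8 replication members (75%), 1 of 19 others (5.26%), and 5.88% of all promoters. CCAAT was present in 78.9% of the members outside replication, 75% of the replication members, and 37.7% of all promoters. A match is a description of letters and not a bound site. The 150 bases before the start of 4 members are shown 5′ to 3′ on the strand of the gene, with matches on either strand in capitals, because they set the 2 patterns side by side: Mcm5 is a helicase subunit with E2F letters, and cyclin B1 (Ccnb1), the anaphase activator Cdc20, and topoisomerase II alpha (Top2a) hold CHR letters at positions -25, -51, and -22 from the start. They lie at chr19:13488663-13488812 (Mcm5, plus strand), chr2:33655226-33655375 (Ccnb1, minus strand), chr5:137255800-137255949 (Cdc20, minus strand), and chr10:84473094-84473243 (Top2a, minus strand).
Mcm5: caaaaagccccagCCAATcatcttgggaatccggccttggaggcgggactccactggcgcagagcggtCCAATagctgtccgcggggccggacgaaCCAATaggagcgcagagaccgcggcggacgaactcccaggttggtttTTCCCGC
Ccnb1: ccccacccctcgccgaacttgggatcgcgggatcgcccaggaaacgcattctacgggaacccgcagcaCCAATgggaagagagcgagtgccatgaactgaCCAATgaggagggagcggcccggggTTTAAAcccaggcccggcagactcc
Cdc20: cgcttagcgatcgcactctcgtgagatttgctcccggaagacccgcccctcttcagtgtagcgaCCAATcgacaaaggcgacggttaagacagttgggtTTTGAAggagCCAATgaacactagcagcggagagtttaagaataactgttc
Top2a: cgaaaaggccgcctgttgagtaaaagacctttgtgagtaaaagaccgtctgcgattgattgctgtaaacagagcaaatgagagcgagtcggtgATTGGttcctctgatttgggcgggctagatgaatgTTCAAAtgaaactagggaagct

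An injured and a sham library, FOD-CCI 2 and SOD-CT 4, held the highest pair of values for many members, and FOD-CCI 2 the highest value for most. FOD-CCI 2 was the highest of the 20 libraries for 25 of 34 members, and SOD-CT 4 for 2. Among the 27 members that passed the filter over all 20 libraries, FOD-CCI 2 was highest for 19, against 5.74% of all 14435 genes that passed it. SOD-CT 4 was highest for 1, against 5.13%, and FOD-CCI 2 and SOD-CT 4 were the top pair for 10, against 1.84%. The same libraries were highest for genes of blood cell precursors. For 11 erythroid precursor genes, the mean log2 CPM was 5.59 in FOD-CCI 2 and 4.87 in SOD-CT 4, while the next library stood at 0.97 and the median at -0.19, and all 11 genes had this pair as their top libraries. For 10 neutrophil precursor genes, it was 6.38 and 4.59, with 3.22 in the next library and a median of 0.41, and 9 of 10 genes had this pair on top. Mpo, the myeloperoxidase of neutrophil granules, measured 146 CPM in FOD-CCI 2 and 26.8 in SOD-CT 4 and at most 5.06 elsewhere, and Alas2, which starts heme synthesis in red cell precursors, measured 186 and 74.4 and less in every other library. Levels of B cell precursor genes were highest in FOD-CCI 2 (3.09, next 0.13), with Vpreb1 at 0 in the median library, as were Gata1 and Tspo2 of the erythroid list and Ltf of the neutrophil list. Satellite glia genes did not set these libraries apart, at 6.94 in FOD-CCI 2 and 6.77 in SOD-CT 4 within a range of 6.20 to 8.03. SOD-CT 4 was the highest library for Schwann cell genes (10.22, next 9.87, median 9.39), where FOD-CCI 2 stood at 9.30, and FOD-CCI 2 was the highest for T and NK cell genes (0.54, next -0.56, median -1.52), with Cd3d and Cd3e at 0 in the median library. The part of any of these lists in the values of the proliferation genes was not tested.

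Other libraries stood apart by tissue. SOD-CT 1 had the highest skeletal muscle level (13.4 log2 CPM, against a median of 2.76, with 10.8 in FOD-CT 2, 8.83 in FOD-CCI contralateral 3, and 8.50 in SOD-CT 4) and the fewest genes with at least 10 counts (15010, next 16494), and 12 of 34 members were at 0 counts in it. FOD-CT 1, FOD-CCI 1, and FOD-CCI contralateral 1 had spinal cord glia levels of 8.13, 8.07, and 8.54, against a median of -1.10, and FOD-CCI contralateral 1 had the lowest neuron level (5.31, against a median of 9.76). Anln, Aurkb, and Mcm6 were higher in the 3 libraries with cord transcripts than in most others. Anln, an anillin of the cytokinetic ring that myelinating oligodendrocytes also express, measured 36.6, 29.7, and 30.3 CPM in the 3 libraries and at most 5.62 elsewhere. Aurkb, the kinase of the chromosomal passenger complex, measured 7.48, 7.13, and 10.2 CPM in them, at most 2.67 in 15 others, 8.23 in SOD-CT 4, and 10.3 in FOD-CCI 2. Mcm6, a gene of DNA replication, measured 8.05, 7.06, and 11.2 CPM in them, 21.4 in FOD-CCI 2, and at most 5.7 in the rest.

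**Figure D1:**
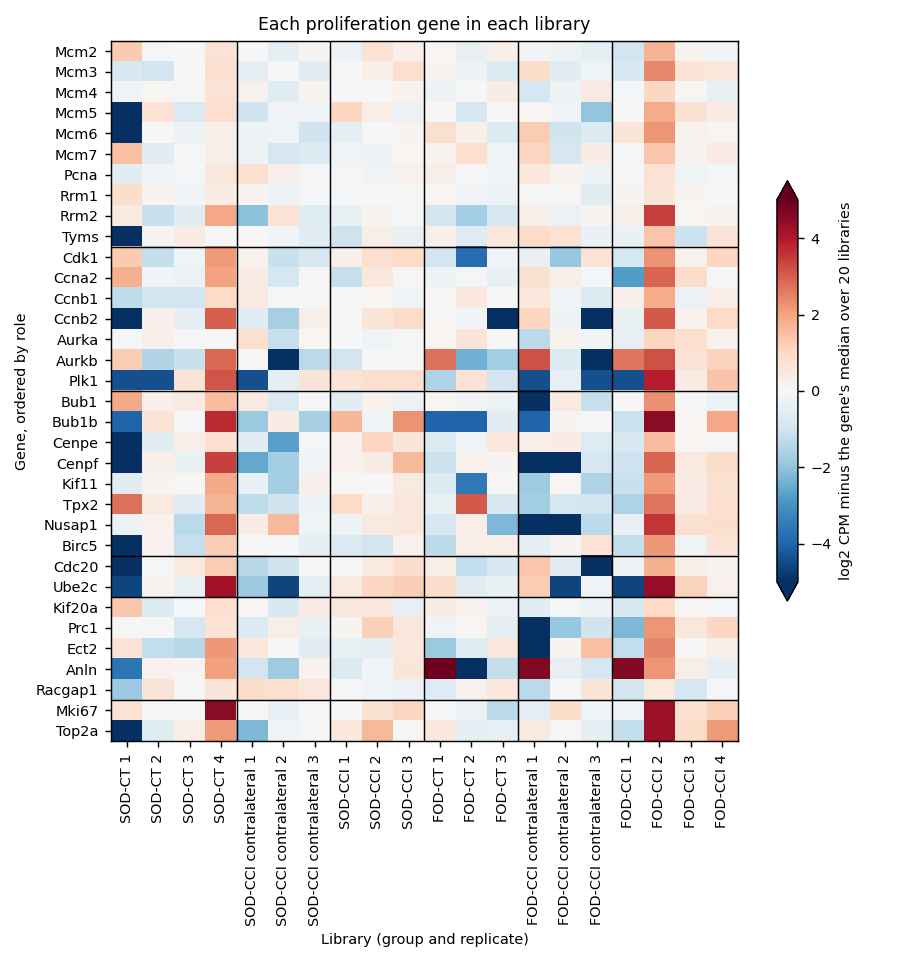
Heat map of the 34 proliferation genes (rows, ordered by role and separated by lines) in the 20 libraries (columns, by group), as log2 CPM minus the gene's median over all libraries, with colors saturating at 5. FOD-CCI 2 is red for nearly every gene, SOD-CT 4 for most mitotic genes, SOD-CT 1 holds the blocks of blue where 12 genes had 0 counts, and Anln is red in the 3 libraries with spinal cord transcripts.

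**Figure D2:**
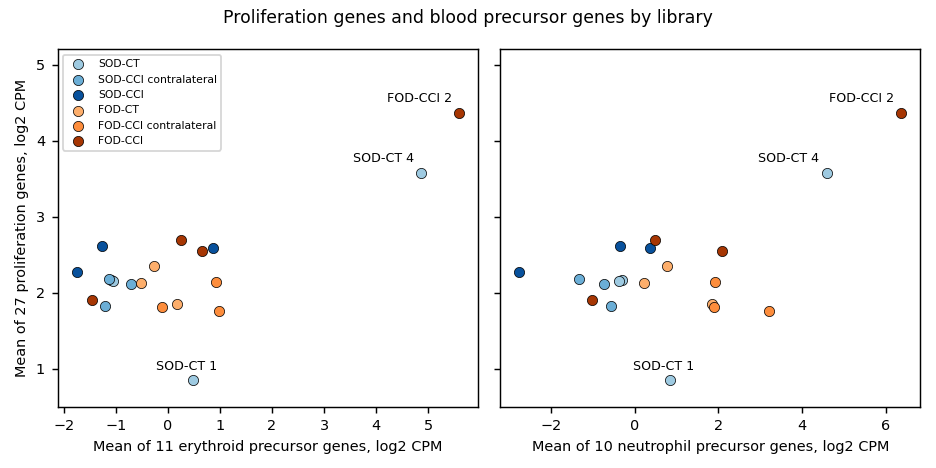
Mean log2 CPM of 27 proliferation genes (vertical axis) against that of 11 erythroid precursor genes (left) and 10 neutrophil precursor genes (right), 1 point per library, colored by group. FOD-CCI 2 (4.36) and SOD-CT 4 (3.58) lie at the upper right of both panels. The lowest point is SOD-CT 1 (0.84), where 12 of all 34 members had 0 counts. Over the 13 members with 10 counts in all 20 libraries, SOD-CT 1 stood at 3.54, above SOD-CT 2 (2.97) and SOD-CT 3 (3.00).

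The mean log2 CPM of the 27 members overlapped between the groups of left DRG. It was 2.18 ± 1.12 in SOD-CT (SD, n = 4), 2.48 ± 0.19 in SOD-CCI (n = 3), 2.11 ± 0.25 in FOD-CT (n = 3), and 2.88 ± 1.05 in FOD-CCI (n = 4), and 2.04 ± 0.19 and 1.90 ± 0.20 in the contralateral DRG of SOD-CCI and FOD-CCI rats (n = 3 each). The largest difference between group means was 0.98, against a spread within groups of 0.73 (pooled SD). Every SOD-CCI library (2.26 to 2.61) lay above the contralateral DRG of SOD-CCI rats (highest 2.18) and FOD-CCI rats (highest 2.13). The SOD-CT mean and the pooled SD include SOD-CT 1 (0.84), whose low level rests on members with 0 counts. Over the 13 members with 10 counts in all 20 libraries, SOD-CT 1 stood at 3.54, above SOD-CT 2 and 3 (2.97 and 3.00). SOD-CT 1, SOD-CT 4, and FOD-CCI 2, the lowest and the 2 highest libraries for this level, were then left out after their values were seen. The level was 2.15 and 2.16 in the 2 remaining SOD-CT libraries and 1.91 to 2.69 in FOD-CCI, beside 2.26 to 2.61 in SOD-CCI and 1.85 to 2.35 in FOD-CT. Every SOD-CCI library was then above both SOD-CT libraries, and FOD-CCI overlapped FOD-CT. The libraries left out are the extremes of this same level, so this order is no test of injury. Macrophage genes ranged from -0.06 (SOD-CT 1) to 3.82 log2 CPM in SOD-CT, 3.74 to 4.40 in SOD-CCI, 1.82 to 4.14 in FOD-CT, and 3.12 to 5.58 in FOD-CCI, overlapping in both diets, and FOD-CCI 4, the highest of all libraries for them, had a member level of 2.69. Their part in the level was not tested.

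**Figure D3:**
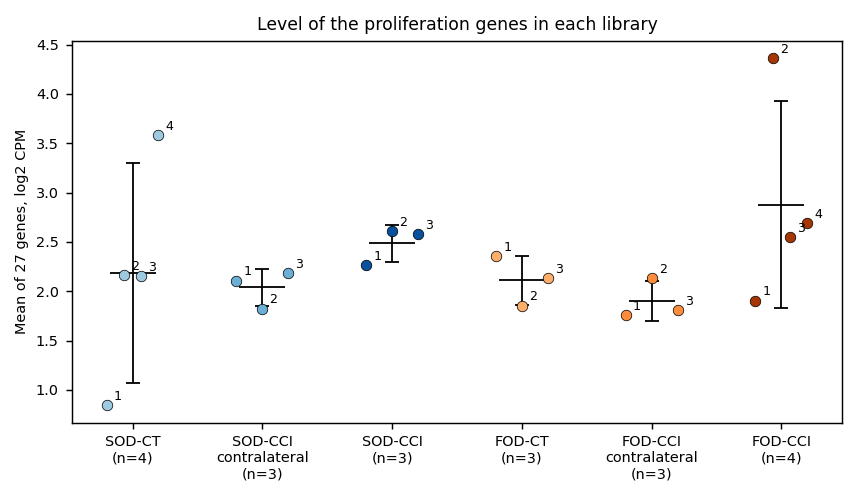
Mean log2 CPM of 27 proliferation genes in each library (points, numbered by replicate), with the group mean and SD (bars). The SD is over 1 in SOD-CT and FOD-CCI, where single libraries reach 3.58 and 4.36, and 0.25 or less in the other 4 groups.

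In rats on the soy oil diet, no member passed the test for injury in the left DRG. Of the 28 members tested, 9 were higher and 19 lower in SOD-CCI than in SOD-CT, with a median log2 fold change (log2FC) of -0.31 (all 14484 genes, -0.01). None passed the quasi-likelihood test of edgeR at an adjusted p (Benjamini-Hochberg) up to 0.1 with a change of 1.2-fold or more (0% of all genes). None had an unadjusted p under 0.05 in either direction (5.05% of all genes higher, 8.8% lower). DESeq2 called 594 of all 14484 genes and no member. Bub1, a kinase of the spindle checkpoint, had the lowest p (log2FC -1.40, SE 0.65, adjusted p = 0.362). Bub1 measured 15.4, 4.91, 5.38, and 11.8 CPM in SOD-CT 1 to 4, 2.77, 4.54, and 3.31 in SOD-CCI 1 to 3, 4.41, 3.74, and 3.34 in FOD-CT 1 to 3, and 4.01, 20.1, 4.12, and 3.31 in FOD-CCI 1 to 4. Bub1 on the right measured 5.54, 2.44, and 4 CPM in SOD-CCI rats 1 to 3 and 0, 5.66, and 1.83 in FOD-CCI rats 1 to 3. The SOD-CCI values lay below all 4 SOD-CT values, of which replicates 1 and 4 were highest. Mki67 measured 5.6, 3.11, 3.43, and 77.4 CPM in SOD-CT 1 to 4, 3.27, 5.66, and 7.08 in SOD-CCI 1 to 3, 3.38, 2.73, and 1.3 in FOD-CT 1 to 3, and 2.94, 67.7, 5.8, and 7.76 in FOD-CCI 1 to 4. Mki67 on the right measured 3.32, 2.54, and 3.22 CPM in SOD-CCI rats 1 to 3 and 2.39, 6.33, and 2.85 in FOD-CCI rats 1 to 3. SOD-CT 4 alone stood far above the SOD-CCI libraries, and the log2FC of Mki67 in SOD-CCI against SOD-CT was -2.06 (SE 1.24, adjusted p = 0.464). Top2a measured 0, 1.72, 3.37, and 11.8 CPM in SOD-CT 1 to 4, 3.88, 8.12, and 2.75 in SOD-CCI 1 to 3, 3.84, 1.94, and 1.96 in FOD-CT 1 to 3, and 1.1, 53.9, 4.99, and 11.7 in FOD-CCI 1 to 4. Top2a on the right measured 0.528, 2.31, and 2.55 CPM in SOD-CCI rats 1 to 3 and 3.7, 2.48, and 1.91 in FOD-CCI rats 1 to 3. The SOD-CT and SOD-CCI values of Top2a overlapped (log2FC 0.23, SE 1.203, adjusted p = 0.943), and SOD-CT 1 had 0 counts. Without SOD-CT 4, 19 of 28 members were higher in SOD-CCI, with a median of 0.30, and Mki67 changed sign, to 0.41 (adjusted p = 0.887).

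In rats on the fish oil diet, most members were higher after injury, without passing the test. In FOD-CCI against FOD-CT, 26 of 28 members had a log2FC above 0 (50.8% of all genes), with a median of 1.00 (all genes, 0.01). None was called by edgeR (0% of all genes, smallest adjusted p = 1) or DESeq2 (21 of all 14484 genes). In edgeR, 4 had an unadjusted p under 0.05, all higher (3.2% of all genes). These were Rrm2, the regulated subunit of ribonucleotide reductase (log2FC 2.97, SE 0.98), Mki67 (3.09, SE 1.31), Cdk1, the kinase that drives entry into mitosis (2.18, SE 0.97), and Nusap1, which bundles spindle microtubules (2.66, SE 1.17). Rrm2 measured 3.8, 1.27, 1.91, and 10.7 CPM in SOD-CT 1 to 4, 2.12, 3.14, and 2.56 in SOD-CCI 1 to 3, 1.43, 0.82, and 1.58 in FOD-CT 1 to 3, and 3.35, 30.5, 2.96, and 3.11 in FOD-CCI 1 to 4. Rrm2 on the right measured 0.641, 4.46, and 1.81 CPM in SOD-CCI rats 1 to 3 and 3.46, 2.26, and 3.04 in FOD-CCI rats 1 to 3. FOD-CCI 2 stood far above the other 3 FOD-CCI libraries for Rrm2, yet these also lay above all FOD-CT libraries. Mcm3 measured 2.27, 2, 3.99, and 6.78 CPM in SOD-CT 1 to 4, 3.99, 4.67, and 6.81 in SOD-CCI 1 to 3, 4.38, 3.31, and 2.42 in FOD-CT 1 to 3, and 2.28, 20.9, 6.21, and 5.86 in FOD-CCI 1 to 4. Mcm3 on the right measured 2.79, 3.83, and 2.69 CPM in SOD-CCI rats 1 to 3 and 7.41, 2.63, and 3.39 in FOD-CCI rats 1 to 3. Mcm3, another helicase subunit, had the lowest p for CCI against CT over both diets (log2FC 0.93, SE 0.46, adjusted p = 0.463), where 22 members were higher and 6 lower (48.8% of all genes above 0) and none was called by edgeR (0% of all genes) or had an unadjusted p under 0.05 (5.9% of all genes higher, 5.57% lower). DESeq2 called no member there either, and 476 of all 14484 genes. Without FOD-CCI 2, 16 of 28 members were higher in FOD-CCI, with a median of 0.12, and the log2FC of Mki67 was 1.16. The injury effect was larger in FOD than in SOD for 26 of 28 members (interaction, median 0.83, with 51.4% of all genes above 0). None passed in edgeR (0% of all genes) or in DESeq2, which called 42 of all 14484 genes. In edgeR, 4 had an unadjusted p under 0.05 (Mki67, Rrm2, Bub1, and Nusap1, all higher, 4.32% of all genes, with 0.684% lower). The lowest p was that of Mki67 (log2FC 5.15, SE 1.80, adjusted p = 0.894). Without SOD-CT 4 and FOD-CCI 2, chosen after their values were seen, the median interaction was -0.25, with 11 members above 0 and 17 below, and the value for Mki67 was 0.74. Without SOD-CT 1, FOD-CT 1, and FOD-CCI 1, the left libraries highest for muscle or spinal cord genes, the median interaction was 1.70, with 32 of 33 members above 0 and none called.

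**Figure D4:**
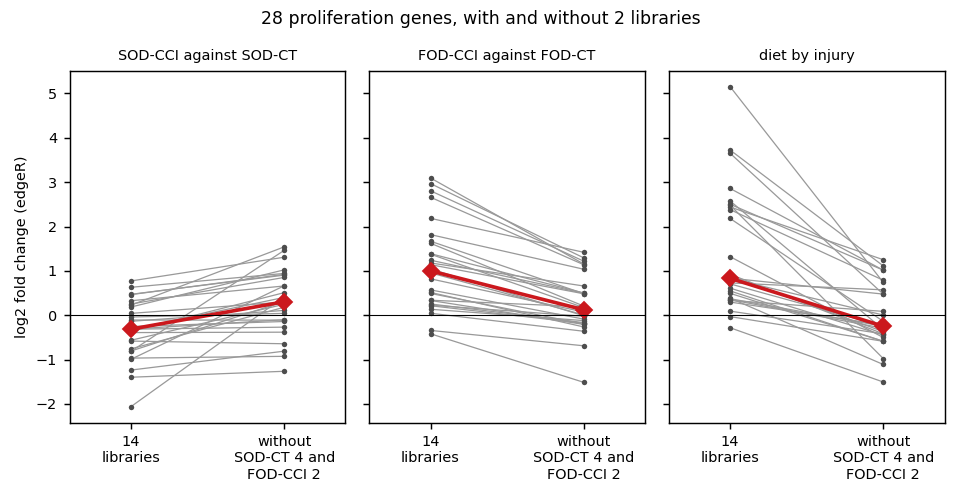
edgeR log2 fold change of 28 proliferation genes (grey lines, 1 per gene) and their median (red) in 3 comparisons of left DRG, with all 14 libraries and without SOD-CT 4 and FOD-CCI 2. The medians move from -0.31 to 0.30, from 1.00 to 0.12, and from 0.83 to -0.25, and no gene passed the test in either setting.

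No member passed the test between diets. In FOD-CCI against SOD-CCI, 25 of 28 members were higher (median 0.67, 54.3% of all genes above 0). None was called by edgeR (0% of all genes) or DESeq2 (2 of all 14484 genes). In edgeR none had an unadjusted p under 0.05 (3.87% of all genes higher, 1.53% lower). Rrm2 had the lowest p (log2FC 1.95, SE 0.93, adjusted p = 0.859). Without FOD-CCI 2, 14 were higher and 14 lower, and the value of Rrm2 was 0.27. In FOD-CT against SOD-CT, 20 of 28 were lower (median -0.34), none was called by either tool (0% of all genes), and Mki67 (-3.16, SE 1.32, adjusted p = 0.965) and Cdk1 (-2.09, SE 0.97) were the 2 with an unadjusted p under 0.05 (1.62% of all genes lower, 1.77% higher). Without SOD-CT 4, 16 members were higher and 12 lower, and the value of Mki67 was -0.69. Both diet comparisons share their libraries with the injury comparisons.

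Values of other abundant members of the replication, cyclin and kinase, and cytokinesis groups follow. Pcna measured 26.8, 34.6, 35.2, and 56.7 CPM in SOD-CT 1 to 4, 39.7, 33.6, and 44.3 in SOD-CCI 1 to 3, 46.6, 37.3, and 32.7 in FOD-CT 1 to 3, and 38.9, 63.1, 32.4, and 36.1 in FOD-CCI 1 to 4. Pcna on the right measured 65.2, 45.5, and 36.9 CPM in SOD-CCI rats 1 to 3 and 54.9, 42.8, and 32 in FOD-CCI rats 1 to 3. The lowest Pcna value was that of SOD-CT 1, and the FOD-CCI 2 value was exceeded by SOD-CCI contralateral 1. Rrm1 measured 85.3, 51.3, 41.3, and 60.3 CPM in SOD-CT 1 to 4, 42.5, 46.5, and 46.7 in SOD-CCI 1 to 3, 49.9, 40.6, and 37.9 in FOD-CT 1 to 3, and 51.2, 69.6, 50.5, and 45.3 in FOD-CCI 1 to 4. Rrm1 on the right measured 50.2, 38.6, and 44.7 CPM in SOD-CCI rats 1 to 3 and 45.6, 45.5, and 31.3 in FOD-CCI rats 1 to 3. Rrm1 was highest in SOD-CT 1, the library highest for muscle genes, and next in FOD-CCI 2. Mcm7 measured 48, 11.4, 15.7, and 20.7 CPM in SOD-CT 1 to 4, 15.4, 14.3, and 18.1 in SOD-CCI 1 to 3, 18.9, 30.1, and 14.4 in FOD-CT 1 to 3, and 15.7, 44.1, 18.6, and 22.3 in FOD-CCI 1 to 4. Mcm7 on the right measured 14, 9.37, and 10.6 CPM in SOD-CCI rats 1 to 3 and 35.9, 9.51, and 21.6 in FOD-CCI rats 1 to 3. Mcm7 had the same top pair, and its ranges in the left groups overlapped. Ccnb1 measured 2.8, 3.52, 3.47, and 13.4 CPM in SOD-CT 1 to 4, 6.62, 7.28, and 5.83 in SOD-CCI 1 to 3, 6.96, 9.66, and 6.88 in FOD-CT 1 to 3, and 8.13, 24.3, 5.48, and 8.51 in FOD-CCI 1 to 4. Ccnb1 on the right measured 9.13, 6.3, and 6.57 CPM in SOD-CCI rats 1 to 3 and 9.71, 6.14, and 4.21 in FOD-CCI rats 1 to 3. Cyclin B1 was higher in every SOD-CCI and FOD-CT library than in SOD-CT 1, 2, and 3, but SOD-CT 4 was above them all. Aurka measured 6.8, 8.34, 6.58, and 7.11 CPM in SOD-CT 1 to 4, 7.05, 6.04, and 6.88 in SOD-CCI 1 to 3, 7.62, 11.1, and 7.05 in FOD-CT 1 to 3, and 5.26, 14.8, 12.3, and 7.95 in FOD-CCI 1 to 4. Aurka on the right measured 12.8, 3.17, and 7.63 CPM in SOD-CCI rats 1 to 3 and 2.84, 8.03, and 6.4 in FOD-CCI rats 1 to 3. Aurka, a kinase of spindle poles, had overlapping ranges in left DRG, except that the SOD-CCI range ended where that of FOD-CT began. Kif20a measured 17.4, 4.21, 6.45, and 12.3 CPM in SOD-CT 1 to 4, 10.1, 10.1, and 5.14 in SOD-CCI 1 to 3, 8.62, 7.9, and 5.55 in FOD-CT 1 to 3, and 3.86, 13.1, 6.99, and 6.38 in FOD-CCI 1 to 4. Kif20a on the right measured 7.24, 3.93, and 8.94 CPM in SOD-CCI rats 1 to 3 and 4.57, 6.51, and 5.62 in FOD-CCI rats 1 to 3. Kif20a, a motor of the dividing cell's midzone, was highest in SOD-CT 1, then in FOD-CCI 2 and SOD-CT 4.

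Within injured rats, no member passed the test between the left and the right DRG of the same animal. The mean log2 CPM of 27 members was higher on the left in 6 of 6 rats, by 0.16, 0.78, and 0.40 in SOD-CCI rats 1, 2, and 3 and by 0.15, 2.23, and 0.74 in FOD-CCI rats 1, 2, and 3. In FOD-CCI rat 1 the sign depended on members near 0 counts. With a prior count of 5 its level was 1.99 on the left and 2.06 on the right. Over the 13 members with 10 counts in all 20 libraries it was 2.81 and 2.96. The left side was higher for 13, 22, and 20 of 27 members in the SOD-CCI rats and for 10, 27, and 19 in the FOD-CCI rats, while 45.7% to 56% of all genes were higher on the left. Over all 6 rats, 24 of 28 members tested had a log2FC above 0 (53.3% of all genes), with a median of 0.76 (all genes, 0.03). None was called by edgeR with the rat as a block (0.962% of all genes), and 6 had an unadjusted p under 0.05, all higher on the left (7.49% of all genes, with 4.1% lower). In the spindle and kinetochore group 4 of 5 members tested were higher, in cytokinesis 4 of 5, in the cyclins and kinases 5 of 5, and in replication 8 of 10.

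Prc1 measured 4.54, 4.46, 2.53, and 7.49 CPM in SOD-CT 1 to 4, 4.93, 10.4, and 6.62 in SOD-CCI 1 to 3, 3.98, 4.77, and 3.23 in FOD-CT 1 to 3, and 0.919, 20.8, 6.61, and 9.33 in FOD-CCI 1 to 4. Prc1 on the right measured 2.75, 5.74, and 3.45 CPM in SOD-CCI rats 1 to 3 and 0, 1.18, and 2.22 in FOD-CCI rats 1 to 3. Prc1, which bundles microtubules between separating chromosomes, was higher on the left in all 6 rats and had the lowest p (log2FC 2.10, SE 0.51, unadjusted p = 0.00276, adjusted p = 0.162). FOD-CCI contralateral 1, the library with the lowest neuron level, had 0 counts of Prc1, so the log2 CPM difference within that rat (4.87) depends on the prior count. The log2FC over all 6 rats was 2.11 with DESeq2, and 1.84 in edgeR without FOD-CCI rat 1. Tpx2 measured 23.9, 4.95, 2.37, and 11.5 CPM in SOD-CT 1 to 4, 7.08, 4.14, and 5.21 in SOD-CCI 1 to 3, 2.69, 29.8, and 1.94 in FOD-CT 1 to 3, and 1.18, 22.4, 4.63, and 6.32 in FOD-CCI 1 to 4. Tpx2 on the right measured 1.43, 1.72, and 2.94 CPM in SOD-CCI rats 1 to 3 and 1.03, 1.89, and 1.83 in FOD-CCI rats 1 to 3. Tpx2, an activator of Aurka at the spindle, was higher on the left in 6 of 6 rats (log2FC 1.56, SE 0.51, adjusted p = 0.275), and its overall maxima were in FOD-CT 2 and SOD-CT 1, the libraries highest for skeletal muscle genes (10.8 and 13.4 log2 CPM), whose part in these values was not tested. Kif11, the motor that pushes the spindle poles apart, was also higher on the left in 6 of 6 rats (1.15, SE 0.41, adjusted p = 0.314). These were 3 of 28 members tested, against 5.24% of all genes. Mki67 was higher on the left in 5 of 6 rats (1.16, SE 0.42, adjusted p = 0.33), and Mcm5 in 4 (1.196, SE 0.48, adjusted p = 0.388). Cdc20 measured 0, 2.99, 4.34, and 7.45 CPM in SOD-CT 1 to 4, 3.06, 4.36, and 5.7 in SOD-CCI 1 to 3, 3.81, 1.31, and 1.83 in FOD-CT 1 to 3, and 2.57, 10.7, 3.78, and 3.37 in FOD-CCI 1 to 4. Cdc20 on the right measured 1.17, 1.55, and 3.12 CPM in SOD-CCI rats 1 to 3 and 8.07, 2.07, and 0 in FOD-CCI rats 1 to 3. Cdc20 was higher on the left in 5 of 6 rats and at 0 counts in FOD-CCI contralateral 3. Racgap1 measured 5.2, 28.3, 18, and 27.7 CPM in SOD-CT 1 to 4, 16.8, 15.9, and 14.8 in SOD-CCI 1 to 3, 11.7, 21.3, and 26.1 in FOD-CT 1 to 3, and 9.56, 25.4, 10.1, and 16.9 in FOD-CCI 1 to 4. Racgap1 on the right measured 33.6, 32.2, and 27.2 CPM in SOD-CCI rats 1 to 3 and 7.16, 18.4, and 27.8 in FOD-CCI rats 1 to 3. Racgap1 went the other way in SOD-CCI rats, lower on the left in 3 of 3 (log2FC -0.94, SE 0.37, unadjusted p = 0.0329, adjusted p = 0.521), and was higher on the left in FOD-CCI rats 1 and 2.

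Several of these differences passed other tests. DESeq2 called 790 of all 14549 genes over all 6 rats, among them 4 members higher on the left, Prc1 (adjusted p = 0.000644), Tpx2 (0.026), Mki67 (0.0727), and Kif11 (0.094). Without both DRG of FOD-CCI rat 1, whose libraries carried spinal cord transcripts, edgeR called 8 of 29 members and 1146 of all 14992 genes (140 of 14549 with all 6 rats). The 8 members were all higher on the left: Mcm5 (log2FC 1.59, adjusted p = 0.0618), Ccnb2 (2.70, 0.0739), Cdc20 (2.61, 0.0675), Kif11 (1.35, 0.0899), Tpx2 (1.94, 0.0445), Prc1 (1.84, 0.0402), Mki67 (1.499, 0.0618), and Top2a (2.23, 0.0541). On leaving out rat FOD-CCI 3, edgeR called Prc1 alone (adjusted p = 0.0953). It called no member without SOD-CCI rat 1, 2, or 3, where 8, 11, and 11 of all genes were called. Without rat FOD-CCI 2 edgeR also called none, and the median over 29 members was 0.38, with 22 higher on the left and 7 lower. Macrophage genes were also higher on the left in SOD-CCI rats, at 3.74 to 4.40 log2 CPM against 1.32 to 2.69, and at 3.12, 4.78, and 4.39 against 3.10, 3.31, and 3.91 in FOD-CCI rats 1 to 3, and their part in the difference was not tested.

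**Figure D5:**
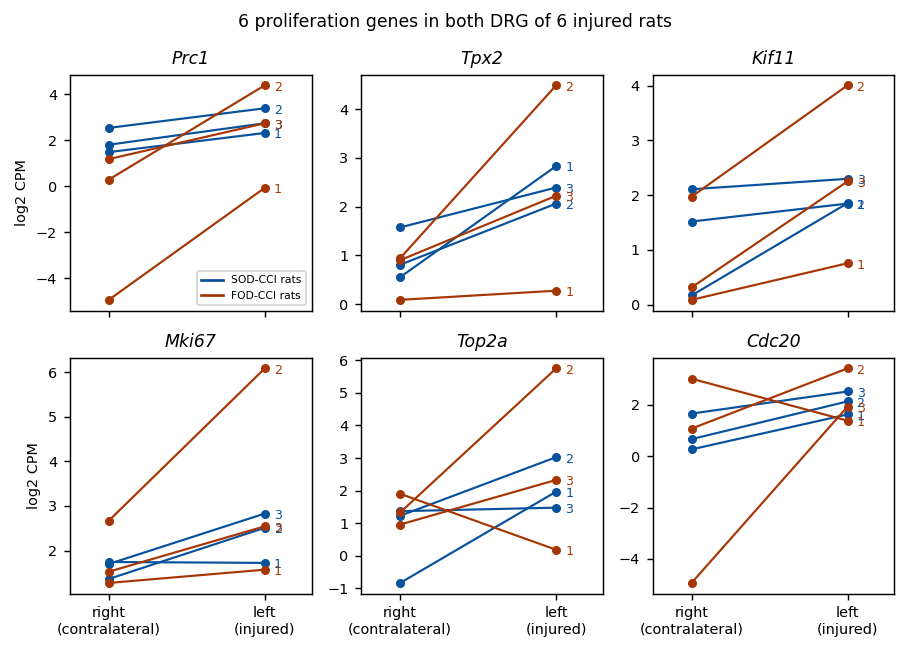
log2 CPM of Prc1, Tpx2, Kif11, Mki67, Top2a, and Cdc20 in the right and left DRG of 6 CCI rats (lines, blue for SOD-CCI and brown for FOD-CCI, numbered by rat), on a vertical scale that differs between panels. Lines rise in 6 of 6 rats for Prc1, Tpx2, and Kif11 and in 5 of 6 for Mki67, Top2a, and Cdc20, and the lowest points of Prc1 and Cdc20 are right DRG with 0 counts.

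By diet, 19 of 28 members were higher on the left in SOD-CCI rats (median 0.47, 52.2% of all genes) and 24 of 28 in FOD-CCI rats (median 0.80, 54.3% of all genes). edgeR called none in SOD-CCI rats (0.131% of all genes), where no member had an unadjusted p under 0.05 in the direction of the left side (5.34% of all genes) and Racgap1 in the other (3.14%), and none in FOD-CCI rats (0.0137% of all genes), where 5 did (Prc1, Kif11, Bub1, Mki67, and Rrm1, 4.3% of all genes, with 2.65% lower). DESeq2 called none of the members in SOD-CCI rats, where it called 472 of all 14549 genes, and Prc1 and Bub1 in FOD-CCI rats, where it called 264. Without rat FOD-CCI 2, the median in FOD-CCI rats was 0.07, with 16 members higher and 13 lower. The difference between the diets was tested directly and passed for no member by edgeR (0% of all genes) or DESeq2 (60 of all 14549 genes). In edgeR, 1 member had an unadjusted p under 0.05, Prc1 (log2FC 2.38, SE 1.01, adjusted p = 0.997, with 0.804% of all genes higher). A larger value in FOD-CCI rats was found for 21 of 28 members (53.2% of all genes).

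No member passed the test between contralateral DRG of injured rats and sham DRG. In this comparison right DRG are set against left DRG, so side and surgery cannot be told apart. For SOD-CCI contralateral against SOD-CT, 21 of 25 members were lower (median -0.64, with 48.3% of all genes above 0). None was called by edgeR (0% of all genes) or DESeq2 (52 of all 14007 genes). In edgeR, Mki67 (log2FC -2.95, SE 1.07, adjusted p = 0.7) and Tpx2 (-2.45, SE 0.99) had an unadjusted p under 0.05 (5.98% of all genes lower). Without SOD-CT 4, 13 were higher and 12 lower, with a median of 0.00 and an Mki67 value of -0.43. For FOD-CCI contralateral against FOD-CT, 14 members were higher and 11 lower (median 0.04), none was called by either tool (0% of all genes), and Tpx2 alone had an unadjusted p under 0.05 (-2.82, SE 1.05, adjusted p = 1; 0.8% of all genes lower, 0.907% higher), in a group where FOD-CT 2 reached 29.8 CPM and the others 2.69 or less. Without FOD-CT 2, the value of Tpx2 was -0.51. Between the contralateral DRG of both diets, 13 members were higher and 12 lower in FOD (median 0.05). None was called by edgeR (0% of all genes) or DESeq2 (58 of all 14007 genes). In edgeR none had an unadjusted p under 0.05 (4.5% of all genes higher, 2.61% lower), and Mcm7 had the lowest p (1.07, SE 0.57, adjusted p = 0.702).

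Cell cycle genes outside the 34 that rose in the left DRG over all 6 rats included Kif22 and Cdkn1a. Of 28 other mitosis genes tested (49 listed), 26 were higher on the left, with a median of 0.85, and Kif22, a motor that moves chromosome arms, was called (log2FC 2.04, SE 0.35, adjusted p = 0.0548). Kif22 measured 19.8, 9.65, and 15 CPM on the left and 6.11, 2.38, and 3.12 on the right in SOD-CCI rats, and 5.04, 34.1, and 23.3 on the left and 3.5, 3.77, and 4.06 on the right in FOD-CCI rats, higher on the left in 6 of 6. Of 26 other replication genes tested (31 listed), 19 were higher, with a median of 0.31. Of 8 inhibitors of cyclin-dependent kinases, 4 were higher, and Cdkn1a, which encodes p21, an arrest factor, was called (1.46, SE 0.26, adjusted p = 0.0661). Cdkn1a measured 49.3, 26.3, and 24.4 CPM on the left against 9.32, 9.67, and 5.47 on the right in SOD-CCI rats, and 15.3, 17, and 78.2 against 18, 6.33, and 26 in FOD-CCI rats. The calls of Kif22 and Cdkn1a held with DESeq2 (adjusted p from 7.34e-07 to 1.5e-05) and were lost without the block and on leaving out any 1 rat other than FOD-CCI 1 (adjusted p from 0.11 to 0.366). Of 9 G1 cyclins and kinases, 8 were higher and none was called, among them Ccne1, which opens S phase (0.52, SE 0.28, adjusted p = 0.531), and Ccnd1, which links growth signals to the cycle (0.02, SE 0.16, adjusted p = 0.982). Of 11 cell cycle transcription factors tested (15 listed), 8 were higher and none was called, with Myc at 0.96 (SE 0.21, adjusted p = 0.111) and E2f1 at 0.10 (SE 0.15, adjusted p = 0.84), and Foxm1 did not pass the filter.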

How the data were processed

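RNA of 20 DRG from 14 rats was sequenced. The authors deposited counts per gene for each library, and FPKM values beside them. Their processing notes name fastp, HISAT2, and featureCounts 1.5.0-p3. The genome build and the strand setting are not given in the sources used here, so no coordinates of the files are used. The methods state that each rat was caged alone, and replicate labels do not say whether left DRG of a group were taken on separate days. The p-values set a difference against the spread between these libraries.

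The deposited counts were tested with the quasi-likelihood test of edgeR 4.0.16 (R 4.3.3, limma 3.58.1) after TMM normalization, with a minimum of 10 counts in 90% or more of the libraries of a fit. Calls needed an adjusted p (Benjamini-Hochberg, over all genes tested) up to 0.1 and a change of 1.2-fold or more. log2 CPM used a prior count of 1. The left DRG (14 libraries), left and right DRG of 6 CCI rats (12 libraries, rat as a block), and right DRG with sham DRG (13 libraries) were fitted separately. Left and right numbers pair because they name the same rat, and their deviations correlated at 0.11 to 0.43. FPKM served only to compare levels between genes. DESeq2 1.42.0, other normalizations and filters, the replicate block, and leaving out each replicate were alternatives. Scripts were tested on simulated data.

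Members and lists were chosen with earlier results of these data known. Values in every library are given for Mki67, Top2a, the 2 most abundant tested members of each role, and the member with the lowest p in each comparison. Genes of other lists are named if called, lowest in p for left against right, or Ccnd1, Cdkn1a, E2f1, or Foxm1. Some results under this rule are not reported here. Kif11, Mcm5, Mcm6, Cdk1, Nusap1, Anln, Aurkb, Mpo, and Alas2 were named after their values were seen.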

Additional observations from a re-analysis of the deposited data

Results flagged for a closer look

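Of 32 sets of 4 libraries examined for single values far from the rest, 4 held one, where chance gives about 1 in 20 independent sets. These sets were not independent, as they took the member level and genes within it in the same SOD-CT and FOD-CCI rats. Some of these genes were chosen for their low p in these data. Whether the count exceeds chance was not tested. In SOD-CT, Ccnb1 stood apart in SOD-CT 4 (3.75 log2 CPM, a gap of 0.855 of the group's range) and Cdc20 in SOD-CT 1 (-4.94, gap 0.833), where it had 0 counts. In FOD-CCI, Bub1 (4.33, gap 0.878) and Rrm2 (4.93, gap 0.947) stood apart in FOD-CCI 2. SOD-CT 4 and FOD-CCI 2 are the libraries highest for erythroid and neutrophil precursor genes, and SOD-CT 1 is the one highest for muscle genes.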

How the results depend on the processing

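In left DRG no member was called under any alternative, replicate block included. The number of all genes called did change. For CCI against CT over both diets it was 24 with RLE normalization, 224 without a filter, 476 with DESeq2, and 1 with the replicate block, and DESeq2 called 594 for SOD injury (1 with the replicate block), 21 for FOD injury, 42 for the interaction, and 2 for FOD-CCI against SOD-CCI. Without SOD-CT 1 (highest for muscle genes), FOD-CT 1, and FOD-CCI 1 (spinal cord genes), while FOD-CT 2 and SOD-CT 4 with muscle levels of 10.8 and 8.50 log2 CPM stayed in, 200, 526, and 1180 genes were called for SOD injury, FOD injury, and both diets, the median interaction of the members was 1.70, and Top2a after SOD injury was -0.20. Same-numbered FOD-CCI and FOD-CT rats, which are different animals, also correlated (0.43, 0.24, and 0.19).

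For left against right in SOD-CCI, FOD-CCI, and all 6 rats, 220, 61, and 456 genes were called without a filter (3 for the difference between diets), 64, 10, and 220 with 10 counts in at least 3 libraries, 472, 264, and 790 with DESeq2 (60 for the difference), and 0, 0, and 10 with no replicate block. Members called were 1 without a filter, and 2 (FOD-CCI rats) and 4 (all rats) with DESeq2. For contralateral DRG, DESeq2 called 52 genes (SOD-CCI contralateral against SOD-CT) and 58 (between diets).

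Alternatives chosen after seeing the data left out SOD-CT 4 and FOD-CCI 2. The medians were then 0.12 for FOD injury and -0.25 for the interaction, and Mki67 after SOD injury was 0.41. Also without SOD-CT 1, these were 0.061, -0.027, and 0.73, with -0.0789 for FOD-CCI against SOD-CCI. With 10 counts in at least 3 libraries, they were 0.17, -0.27, and 0.45, with 0.42 for SOD injury and -0.11 for FOD-CCI against SOD-CCI.

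Leaving out 1 replicate at a time, medians ranged from -0.46 to 0.30 (SOD injury), 0.12 to 1.29 (FOD injury), -0.08 to 0.77 (both diets), 0.21 to 1.12 (interaction), -0.01 to 0.97 (FOD-CCI against SOD-CCI), and -0.51 to 0.10 (FOD-CT against SOD-CT). For left against right they ranged from 0.29 to 0.70 (SOD-CCI), 0.07 to 1.75 (FOD-CCI), 0.38 to 1.18 (all 6 rats), and -0.18 to 1.07 (difference), and for SOD-CCI contralateral against SOD-CT from -0.88 to 0.00. Genes called ranged from 0 to 47, 0 to 43, and 0 to 517 (SOD, FOD, and both diets) and from 0 to 471, 0 to 137, and 8 to 1146 (left against right), with 0 to 8 members over all 6 rats. Mki67 after SOD injury ranged from -2.42 to 0.41 and Top2a from -0.35 to 1.53, at -0.20 without SOD-CT 1 and -0.03 without SOD-CT 2.

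Over the 13 members with 10 counts in all libraries, the level was 3.45 in SOD-CT, 3.06 in SOD-CCI contralateral, 3.32 in SOD-CCI, 3.16 in FOD-CT, 3.01 in FOD-CCI contralateral, and 3.63 in FOD-CCI. SOD-CT was here above SOD-CCI, whereas over 27 members it was below (2.18 and 2.48). Over all 34 the level was 1.67 in SOD-CT, 1.35 in SOD-CCI contralateral, 2.07 in SOD-CCI, 1.45 in FOD-CT, 1.03 in FOD-CCI contralateral, and 2.47 in FOD-CCI. The cause of these changes was not tested. Groups of 3 and 4 and members under 10 counts limit what differences could be detected.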
